A study of Homo sapiens with 6 samples.

Results

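The genes described here are 34 genes of glycolysis, the pentose phosphate pathway and the steps on either side of them, in T24 cells with and without TGF-β1. T24 is an established cell line grown from a human urothelial carcinoma of the bladder. The members were taken by symbol from a list of enzymes, transporters and regulators, and each of the 34 names 1 of the 58735 gene rows of the deposited table. A total of 32 of the 34 reached 1 FPKM (fragments per kilobase of exon, scaled to the library's size) in at least 3 libraries and were tested, among 11363 genes that did so. ALDOC and SLC2A3 did not reach it.

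Total RNA was sequenced as 6 libraries of paired-end reads on an Illumina NovaSeq instrument. The 3 control libraries came from wild-type T24 cells kept without the cytokine, and the 3 TGF-β1 libraries from wild-type T24 cells given it at 10 ng/ml for 48 h; both groups grew with 10% fetal bovine serum and both carry the label day 2. A single cell line stands behind both groups. Whether the replicates are separate cultures is not said in the labels, and the spread that the p-values measure may therefore be technical.

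Glycolysis splits glucose to pyruvate in the cytosol and yields ATP and NADH. It begins with glucose uptake and phosphorylation, is committed at phosphofructokinase, and ends at pyruvate kinase, after which pyruvate is reduced to lactate or enters the mitochondrion through pyruvate dehydrogenase. The pentose phosphate pathway branches off at glucose-6-phosphate and makes NADPH and the ribose of nucleotides. Many carcinoma lines, bladder lines among them, run glycolysis at a high rate even in oxygen, and several of its genes are known targets of the transcription factors HIF-1 and MYC.

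Across the whole table the libraries held 20703945 to 23678772 fragments assigned to genes, and the floor of 3 fragments equals 0.0625 to 0.0701 FPKM for a 2000 bp gene. With TGF-β1, 277 of the 11363 genes tested passed an adjusted p of 0.05 (limma on log2(FPKM + 1), Benjamini-Hochberg over all genes), which is 2.44%. Without control 3 the same test called 3280. The keratins KRT8 (222 and 188 FPKM, means of control and TGF-β1 libraries) and KRT18 (322 and 227 FPKM) of simple epithelia were abundant. Of the 16 epithelial and urothelial markers 7 were tested and 0 called by limma. At an unadjusted p under 0.05 there were 3, against 25.1% of all genes tested. Besides KRT8 and KRT18 the tested ones were KRT7 (14.7 and 10.0 FPKM), UPK1A (1.25 and 0.738), UPK1B (1.81 and 1.24), PPARG (2.91 and 2.52) and FOXA1 (2.82 and 2.89). The remaining 9 of the 16 were under 1 FPKM in every library, and UPK3A, KRT5 and KRT19 among them were listed at 0 in all. The list summed to 478 to 645 FPKM in the controls and 414 to 445 with TGF-β1, most of it from KRT8 and KRT18. Leukocyte, endothelial and fibroblast markers summed to at most 0.745 FPKM per list in any library. None of the 5 leukocyte, 4 endothelial and 5 fibroblast markers reached 1 FPKM in any library.

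A pair of enzymes passed the test, and both were lower with TGF-β1. ENO2, the gamma enolase, which turns 2-phosphoglycerate into phosphoenolpyruvate and is best known from neurons, stood at 27.4, 27.7 and 23.2 FPKM in controls 1 to 3 and at 19.5, 18.1 and 18.2 FPKM in TGF-β1 libraries 1 to 3. PFKL, the liver-type subunit of phosphofructokinase, stood at 48.6, 48.1 and 33.7 FPKM in the controls and at 30.0, 24.1 and 24.8 FPKM with TGF-β1. All control libraries lay above all TGF-β1 libraries for both genes, and control 3 was the lowest control for both. ENO2 fell from 26.1 ± 2.54 to 18.6 ± 0.80 FPKM (SD, n = 3), a change of -0.46 on the log2(FPKM + 1) scale (SE 0.099, limma adjusted p = 0.034). PFKL fell from 43.5 ± 8.49 to 26.3 ± 3.21 FPKM (SD, n = 3), a change of -0.69 (SE 0.15, limma adjusted p = 0.039). Values are summed over all exons of a gene in bulk RNA, where less RNA per cell and fewer expressing cells cannot be told apart. In GENCODE 29 on GRCh38 ENO2 spans chr12:6913745-6923698 and PFKL chr21:44300051-44327376, both on the plus strand, and no other annotated exon overlaps theirs.

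Of the 32 members tested, 2 were called lower and 0 higher. The background is 1.29% of all genes called lower and 1.14% called higher. At an unadjusted p under 0.05 there were 9 members, all with a negative change, against 25.1% of all genes tested in either direction and 13.9% with a negative change. Limma's voom on fragments recovered from the FPKM also called 0 members higher, and it called 5 lower, against 5.18% of all genes called lower and 3.06% higher by that tool. The calls of PFKL and ENO2 were both lost without control 1 (adjusted p = 0.163 for PFKL and 0.179 for ENO2), without control 2 (0.141 and 0.131), without TGF-β1 library 2 (0.127 and 0.156) and without TGF-β1 library 3 (0.137 and 0.112). They were also lost with no filter on low values (0.335 and 0.249) and in limma without trend and robust estimation (0.066 and 0.055). Both held without control 3 or without TGF-β1 library 1.

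The stretches of 250 bases before the RefSeq start of 4 members are printed here because of where these members stand in the comparison: ENO2 and PFKL, the 2 that were called, ALDOC, which had the largest relative drop in FPKM among the members but was too low to test, and PGAM1, whose level hardly differed. The sequences are from RefSeq on GRCh38.p14 and run 5′ to 3′ along the gene. Capitals mark ACGTG or GCGTG on the strand shown or its reverse, CACGT or CACGC. These are the core letters that hypoxia-inducible factors bind, and ACGTG is also part of the E-box CACGTG that MYC and related factors bind.
ENO2, chr12:6914330-6914579, plus strand: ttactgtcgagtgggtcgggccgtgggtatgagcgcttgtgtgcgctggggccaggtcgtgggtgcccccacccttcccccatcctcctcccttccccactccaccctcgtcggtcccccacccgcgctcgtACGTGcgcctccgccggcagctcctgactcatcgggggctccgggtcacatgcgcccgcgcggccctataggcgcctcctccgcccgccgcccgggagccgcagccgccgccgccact
PFKL, chr21:44299803-44300052, plus strand: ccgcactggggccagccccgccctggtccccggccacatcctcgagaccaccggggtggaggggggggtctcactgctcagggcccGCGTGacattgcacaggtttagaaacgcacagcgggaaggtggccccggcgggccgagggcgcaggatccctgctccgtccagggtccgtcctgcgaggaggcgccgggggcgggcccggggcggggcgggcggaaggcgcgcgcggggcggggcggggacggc
ALDOC, chr17:28576896-28577145, minus strand: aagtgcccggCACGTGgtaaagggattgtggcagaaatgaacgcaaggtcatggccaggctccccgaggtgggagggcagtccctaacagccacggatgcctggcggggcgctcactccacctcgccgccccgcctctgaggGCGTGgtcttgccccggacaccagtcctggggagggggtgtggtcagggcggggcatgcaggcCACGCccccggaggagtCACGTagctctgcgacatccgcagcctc
PGAM1, chr10:97427568-97427817, plus strand: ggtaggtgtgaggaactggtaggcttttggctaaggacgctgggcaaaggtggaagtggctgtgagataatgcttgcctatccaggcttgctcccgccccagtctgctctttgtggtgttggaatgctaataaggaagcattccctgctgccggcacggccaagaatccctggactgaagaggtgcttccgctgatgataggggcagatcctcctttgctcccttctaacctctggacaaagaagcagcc

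The ENO2 window held ACGTG 1 time, the PFKL window held GCGTG 1 time, and the PGAM1 window held 0 of either. The ALDOC window held ACGTG 3 times and GCGTG 2 times, with its CACGTG counted on each strand. In the annotation used for gene coordinates PGAM1 starts at chr10:97426160, so its window lies inside the gene. The 0 of PGAM1 therefore does not cover the bases before that start. The ENO2 and ALDOC windows also lie within their annotated genes, chr12:6913745-6923698 and chr17:28573115-28577264. RefSeq windows were found for 31 of the 34 members, 20 with a single start and 11 with several. Of the 20 members with a single start, 7 held ACGTG (35%), against 18.4% of the 22114 genes with a single start, and 9 held GCGTG (45%), against 31.1%. Over all windows, 20 of 59 member windows held ACGTG (33.9%, against 18.5% of 35116), and 19 of 59 held GCGTG (32.2%, against 32.2%). A match is a description of these letters, not of binding.

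The members as a group sat slightly lower with TGF-β1. The fitted change was below 0 in 28 of the 32, against 48.0% of all genes tested, and the median change was -0.19 on the log2(FPKM + 1) scale, against 0.012 over all genes. In 11 of the 32 every TGF-β1 library was below every control, in 0 every TGF-β1 library was above every control, and in 21 the groups overlapped. Over all genes tested the shares were 12.5% for TGF-β1 lower and 14.6% for TGF-β1 higher. Scaling each library to an equal FPKM sum moved the members' median to -0.11 and the median of all genes to 0.077.

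Changes of this size moved with GC content in the whole table, and with 1 control library. Among all genes tested the median change was 0.18 for transcripts under 40% GC, 0.13 at 40 to 45%, 0.044 at 45 to 50%, -0.044 at 50 to 55%, -0.15 at 55 to 60% and -0.24 over 60%. The members' medians were 0.037 (6 members at 40 to 45%), -0.099 (4 at 45 to 50%), -0.19 (7 at 50 to 55%), -0.21 (12 at 55 to 60%) and -0.62 (3 over 60%, which are PFKL, PGLS and SLC16A3). The members' median lay below that of all genes in each of these ranges. A loess trend of the values with GC content and exon length was then taken out of each library, called GC-corrected below. In the GC-corrected values 26 of the 32 changes were below 0 with a median of -0.17. PFKFB3, PGAM1 and PGD turned from below 0 to above it and PFKFB2 the other way. ENO2, PFKL and HK2 were called lower, with GC-corrected changes of -0.34, -0.53 and -0.47. PFKL has a GC content of 64.0%. As deposited, 90.2% of the 1656 genes over 60% GC were below 0, and 63 of them were called lower. All genes called were then 504, with 217 of them lower (1.92%).

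**Figure D1:**
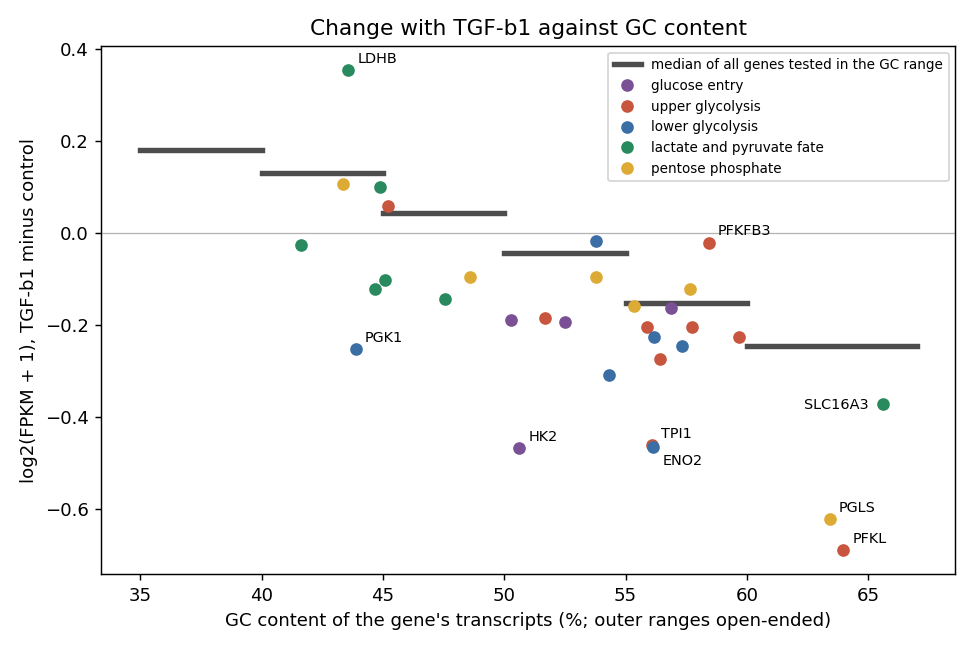
Change of each tested member with TGF-β1 (y axis, log2(FPKM + 1), TGF-β1 minus control) against the GC content of its transcripts (x axis, percent), coloured by role; horizontal bars are medians of all genes tested in each GC range. The bars run from 0.18 under 40% GC to -0.24 over 60%, and HK2, PGK1, TPI1, ENO2, PGLS and PFKL lie well below the bar of their range.

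Control 3 was the lowest of the controls in 23 of the 32 members and the highest in 6, against 42.2% and 41.5% of all genes tested. It lay within the range of the TGF-β1 libraries in 16 members. The share of all genes where it did so was not taken, so that count is not read as particular to the members. The members' median deviation from their own mean over the 6 libraries was 0.14 in control 1, 0.16 in control 2 and -0.022 in control 3 on the log2 scale, and -0.089, -0.087 and -0.11 in TGF-β1 libraries 1 to 3. Without control 3, 14 members were called lower, against 16.5% of all genes, and with GC correction as well 6 were, against 3.49%. The part of control 3 and of GC content in the members' lower levels was not tested.

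**Figure D2:**
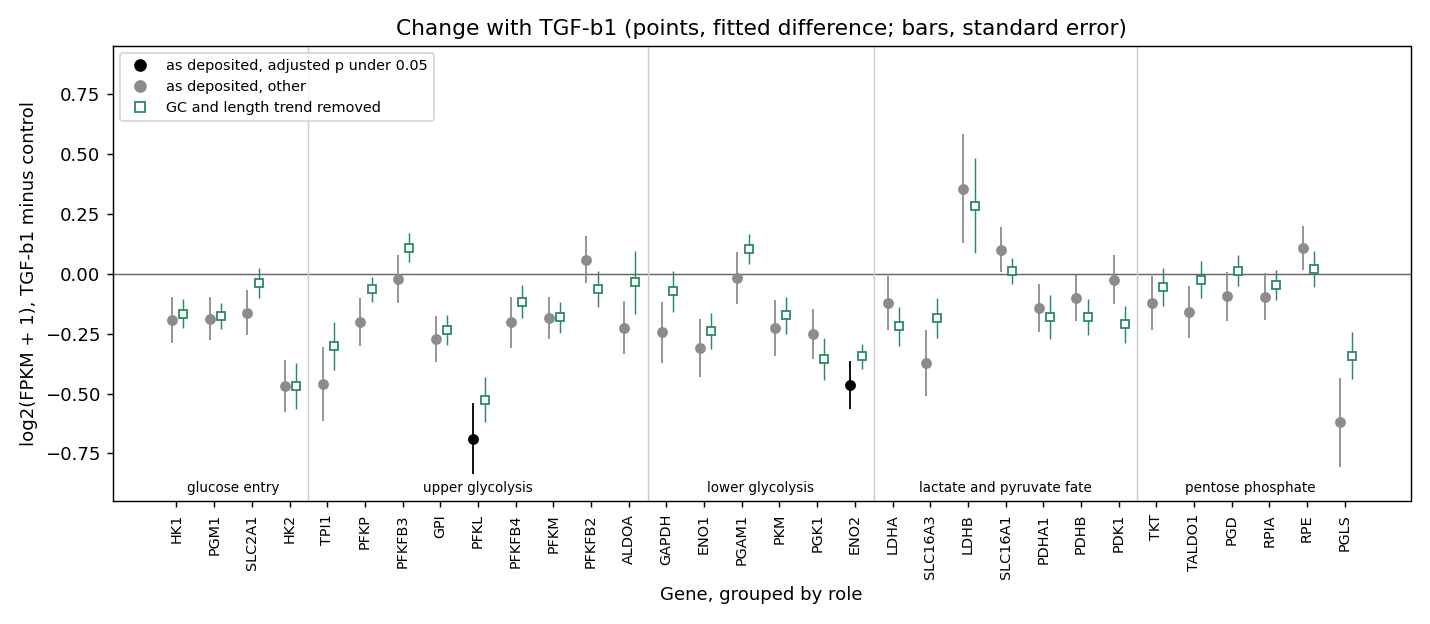
Fitted change of each of the 32 tested members (y axis, log2(FPKM + 1), TGF-β1 minus control; bars, standard error), grouped by role. Filled points are from the values as deposited, black where the adjusted p was under 0.05 (PFKL and ENO2), and open squares are from the GC-corrected values; 28 of the filled points and 26 of the squares lie below 0.

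By level, the members spanned a wide range. GAPDH stood first among the members at 2463 ± 271 FPKM in the controls and 2073 ± 154 with TGF-β1 (SD, n = 3), followed by ENO1, TPI1 and LDHA. GAPDH and ENO1 together made up 51.7% of the members' summed FPKM in the controls and 50.7% with TGF-β1. The members' share of all FPKM was 2.53, 2.55 and 2.34% in controls 1 to 3 and 2.25, 2.18 and 2.20% in TGF-β1 libraries 1 to 3. Every control thus had a higher share than every TGF-β1 library, with means of 2.47 ± 0.11% and 2.21 ± 0.032%. The 10 tested members over 100 FPKM had a median change of -0.21, and the 385 genes over 100 FPKM in the whole table had one of -0.095. In the GC-corrected values these were -0.12 and -0.0073.

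**Figure D3:**
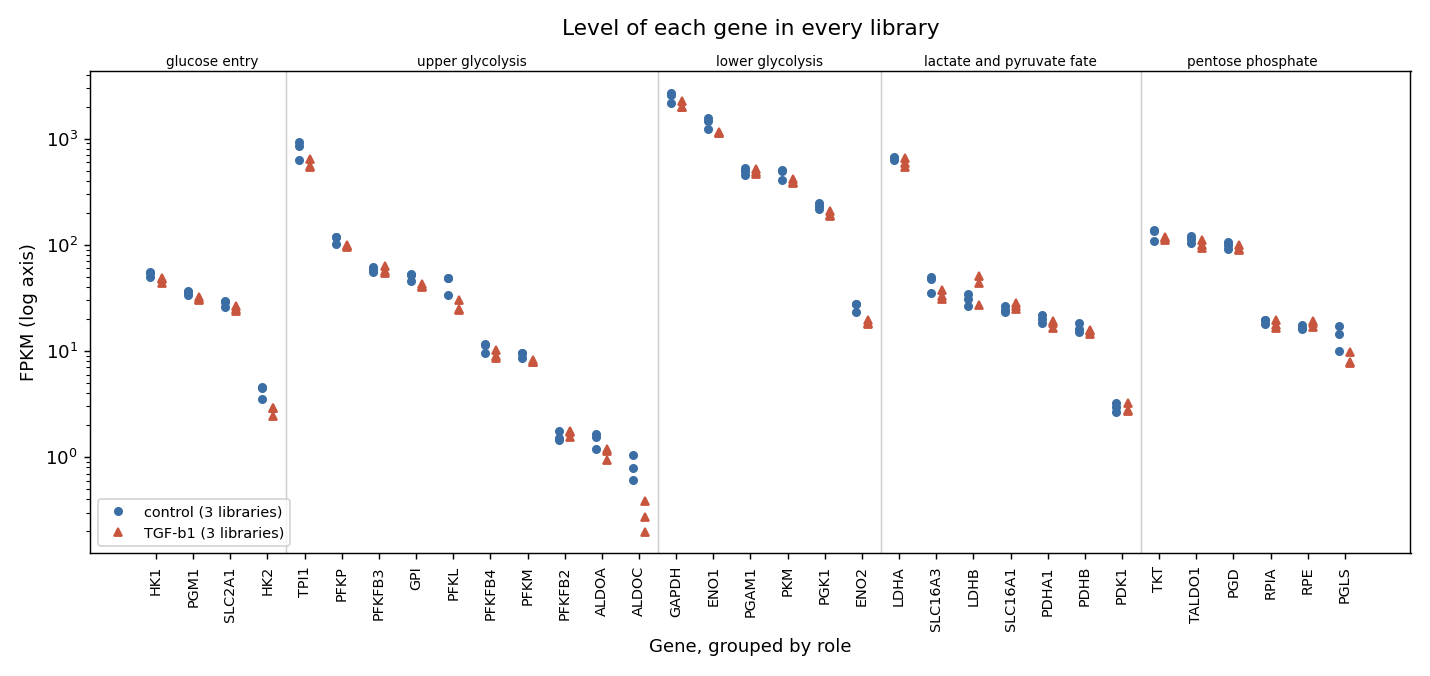
Level of each member in each of the 6 libraries (y axis, FPKM on a log axis), grouped by role and ordered by level; circles are controls and triangles TGF-β1 libraries. SLC2A3, with 0 fragments in 2 libraries, is not drawn. GAPDH is highest at 1967 to 2678 FPKM. All triangles lie below all circles for ALDOC and for 11 of the 32 tested members, ENO2, PFKL and HK2 among them, against 12.5% of all genes tested.

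Glucose entry came first in the order of the pathway. HK2, the inducible hexokinase that phosphorylates glucose and is often raised in tumours, stood at 4.49, 3.56 and 4.57 FPKM in the controls and at 2.93, 2.45 and 2.88 FPKM with TGF-β1. The groups did not overlap and control 3 was the highest control. The means were 4.20 ± 0.56 and 2.75 ± 0.26 FPKM (SD, n = 3), a change of -0.47 (SE 0.11) that missed the threshold at an adjusted p of 0.053 in limma. It passed after GC correction (0.031), by voom (0.014), without control 2 (0.031) and without control 3 (0.032). It did not without control 1 (0.225), without TGF-β1 libraries 1, 2 or 3 (0.060, 0.198 and 0.112), with no filter (0.327) or after GC correction without control 3 (0.062). HK1, the constitutive hexokinase, was far more abundant at 53.3 and 46.5 FPKM (adjusted p = 0.23). PGM1, which links glucose-1-phosphate from glycogen to glucose-6-phosphate, stood at 35.6 and 31.1 FPKM (adjusted p = 0.21), and the glucose transporter SLC2A1 (GLUT1) at 28.0 and 24.9 FPKM (adjusted p = 0.28). SLC2A3 (GLUT3) had 1, 0 and 0 fragments in the controls and 5, 2 and 14 with TGF-β1, near the floor of 3 fragments in each library, and no fold is given.

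In upper glycolysis 9 of 10 members were tested, with a median change of -0.20, and PFKL was the only one called. The other subunits of phosphofructokinase, the committing enzyme, were the platelet-type PFKP at 113 ± 9.30 and 97.7 ± 2.59 FPKM (SD, n = 3; adjusted p = 0.23) and the muscle-type PFKM at 9.24 ± 0.53 and 8.01 ± 0.25 FPKM (adjusted p = 0.22). Neither passed, although the groups did not overlap for either. The change of PFKP was -0.20 as deposited and -0.066 after GC correction, and that of PFKM was -0.18 in both. TPI1, the triose phosphate isomerase, was at 857, 933 and 625 FPKM in the controls and at 641, 536 and 557 FPKM with TGF-β1. Its groups overlapped through control 3 and the change was -0.46 (adjusted p = 0.12). Without control 3 it was -0.63 (adjusted p = 0.011). Its 4 annotated pseudogenes together held 13.1 to 25.3 FPKM per library. GPI, the glucose-6-phosphate isomerase, stood at 53.1, 51.8 and 45.8 FPKM and, with TGF-β1, at 41.2, 42.5 and 40.4 FPKM (change -0.27, adjusted p = 0.13), again with no overlap.

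The bifunctional PFKFB enzymes make and break fructose-2,6-bisphosphate, the strongest activator of phosphofructokinase. PFKFB3, the isoform whose kinase activity most outweighs its phosphatase activity, was the most abundant of them and hardly differed, at 58.5 ± 2.96 and 57.7 ± 4.87 FPKM (SD, n = 3; adjusted p = 0.91). PFKFB4 stood at 10.8 and 9.26 FPKM (adjusted p = 0.25), and PFKFB2 at 1.57 and 1.67 FPKM (adjusted p = 0.72).

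The aldolases cleave fructose-1,6-bisphosphate. ALDOC, the brain-type aldolase, was listed at 1.04, 0.604 and 0.798 FPKM in the controls and at 0.383, 0.199 and 0.273 FPKM with TGF-β1. These values rest on 68, 40 and 54 fragments and on 24, 14 and 19 fragments. The groups did not overlap and the mean with TGF-β1 was 0.351 of the control mean, but the gene was below the filter and has no test. ALDOA, the aldolase of most tissues, was listed at only 1.46 and 1.10 FPKM (adjusted p = 0.23). In the annotation used here 42.3% of its exon bases and 93.8% of its coding bases are also exons of AC093512.2 on the same strand, which was itself at 1.49 and 1.32 FPKM. The sources used here do not give how shared fragments were counted, and the listed level of ALDOA cannot be read as its abundance.

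Lower glycolysis had 6 members, all tested, with all 6 changes below 0 and a median of -0.25. After GC correction 5 of the 6 were below 0, with a median of -0.21. Control 3 was the lowest control in all 6. ENO2 was the one called. ENO1, the alpha enolase that carries most enolase activity outside muscle and neurons, stood at 1460, 1558 and 1240 FPKM in the controls and at 1159, 1132 and 1129 FPKM with TGF-β1. The groups did not overlap and the change was -0.31 (SE 0.12, adjusted p = 0.15). PGK1, the phosphoglycerate kinase that yields ATP, was at 234, 248 and 216 FPKM and then 190, 187 and 209 FPKM (change -0.25, adjusted p = 0.17). Its GC content is 43.9%, where the median of all genes was 0.13, and after GC correction its change was larger at -0.36. Neither ENO1 nor PGK1 passed, and both did without control 3 (adjusted p = 0.018 and 0.037).

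GAPDH, the glyceraldehyde-3-phosphate dehydrogenase often used as a reference gene, was at 2552, 2678 and 2159 FPKM in the controls and at 1967, 2002 and 2250 FPKM with TGF-β1, with overlapping groups (change -0.25, adjusted p = 0.24). After GC correction the change of GAPDH was -0.073. Its 62 annotated pseudogenes together held 41.0 to 52.2 FPKM per library. PKM, the pyruvate kinase of most tumour cells, stood at 467 ± 51.3 and 398 ± 16.3 FPKM (SD, n = 3; adjusted p = 0.24). PGAM1, the phosphoglycerate mutase, was the member of this stretch with the smallest change, at 497, 532 and 458 FPKM against 468, 483 and 517 FPKM (-0.017, SE 0.11, adjusted p = 0.93).

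**Figure D4:**
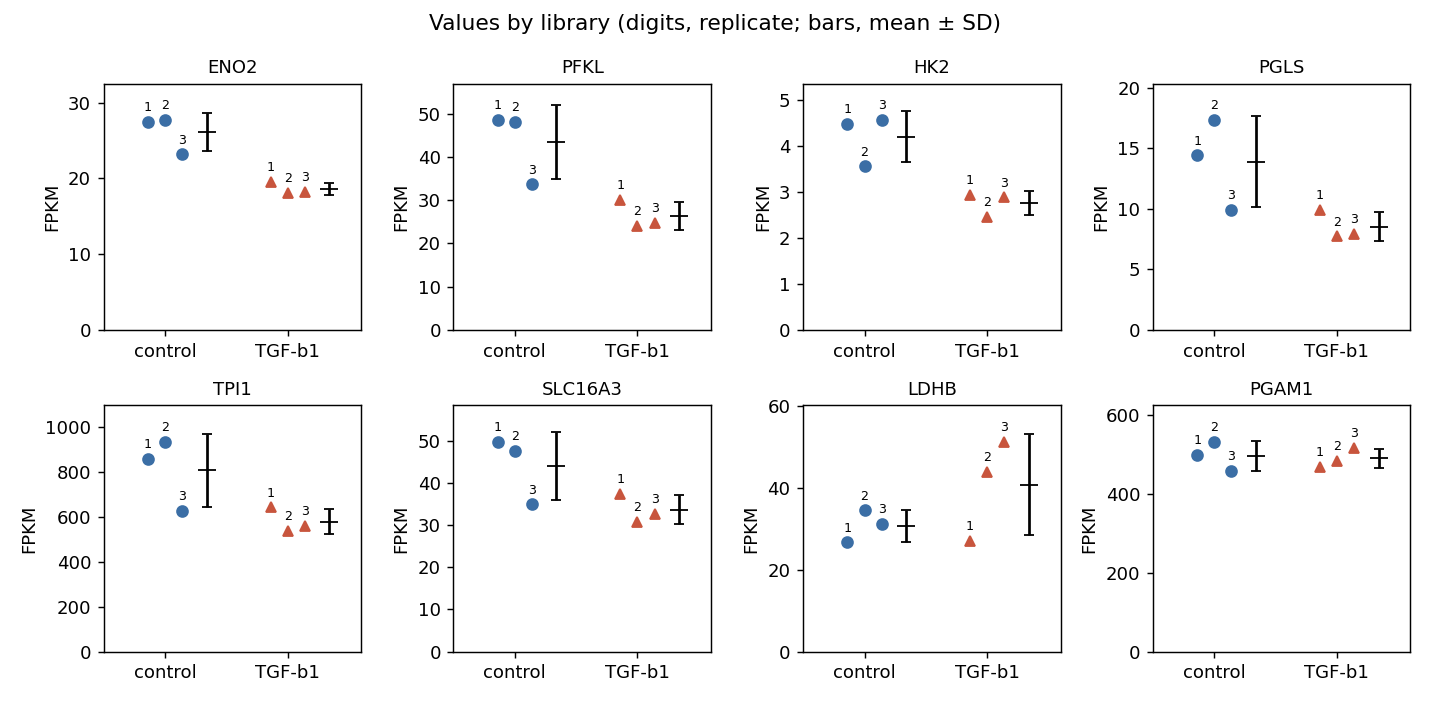
FPKM (y axis, from 0) of 8 members in each library, with the replicate number above each point and the mean ± SD beside each group. ENO2, PFKL, HK2 and PGLS have no overlap between groups, TPI1 and SLC16A3 overlap through control 3, TGF-β1 library 1 of LDHB sits at 27.1 FPKM among the controls, and PGAM1 shows no separation.

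At the fate of pyruvate and lactate none of the 7 members was called by limma, against 2.44% of all genes tested. At an unadjusted p under 0.05 there was 1, against 25.1%. The groups overlapped in all 7, while over all genes tested 12.5% were apart with TGF-β1 lower and 14.6% with it higher. These few genes are thus not read as different from the table at large. LDHA, the lactate dehydrogenase subunit that favours lactate, stood at 651 ± 23.3 and 600 ± 58.3 FPKM (SD, n = 3; adjusted p = 0.50). LDHB, the subunit that favours pyruvate, had the largest positive change of the 32 tested. It was at 26.6, 34.4 and 31.1 FPKM in the controls and at 27.1, 43.8 and 51.2 FPKM with TGF-β1. TGF-β1 library 1 sat among the controls and the other two above them, the change was 0.35 (SE 0.23, adjusted p = 0.35), without that library it was 0.62 (adjusted p = 0.039), and without TGF-β1 library 3 it was 0.17 (adjusted p = 0.68). Of its coding bases 93.5% are also exons of AC010197.2 on the same strand, which held 2 fragments in 1 library and 0 in the others. How shared fragments were counted is not given here either, so the listed level of LDHB cannot be read as its abundance.

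The lactate exporter SLC16A3 (MCT4) was at 49.7, 47.6 and 34.9 FPKM in the controls and at 37.3, 30.7 and 32.7 FPKM with TGF-β1 (change -0.37, adjusted p = 0.14). Its groups overlapped through control 3, its GC content of 65.6% was the highest of the members, and its change was -0.18 after GC correction. SLC16A1 (MCT1), which carries lactate in either direction, stood at 24.6 and 26.4 FPKM (adjusted p = 0.51). PDK1, a kinase that shuts off pyruvate dehydrogenase, stood at 2.96 and 2.89 FPKM (adjusted p = 0.89). The dehydrogenase's E1 subunits PDHA1 and PDHB stood at 19.9 and 18.0 FPKM (adjusted p = 0.37) and at 16.5 and 15.3 FPKM (adjusted p = 0.52). Of the exon bases of PDHA1 21.3% overlap MAP3K15 on the opposite strand, as 23.8% of those of the pentose phosphate gene RPE overlap KANSL1L. None of these are coding bases of PDHA1 or RPE. Other members have opposite-strand overlaps too, among them PGLS, GAPDH and PDHB with 24.1, 21.5 and 21% of their coding bases. With no strand setting stated such fragments cannot be told apart.

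Of the 6 pentose phosphate members 0 were called by limma, against 2.44% of all genes tested. At an unadjusted p under 0.05 there was 1, against 25.1% of all genes tested. That was PGLS, the lactonase of the oxidative branch, at 14.4, 17.3 and 9.91 FPKM in the controls and 9.88, 7.72 and 7.94 FPKM with TGF-β1. The groups were apart by the small gap between control 3 and TGF-β1 library 1, the change was -0.62 (SE 0.18) and the adjusted p 0.11. After GC correction it was -0.34, and voom called it lower (adjusted p = 0.022). PGD, the NADPH-making dehydrogenase that follows it, stood at 99.2 ± 7.56 and 92.7 ± 5.72 FPKM (SD, n = 3; adjusted p = 0.56). The transketolase TKT, at 126 and 116 FPKM, and the transaldolase TALDO1, at 113 and 102 FPKM, rearrange sugars between the pathways and did not pass (adjusted p = 0.50 and 0.35). RPIA, the ribose-5-phosphate isomerase, stood at 19.1 and 17.8 FPKM and RPE, the epimerase, at 16.7 and 18.0 FPKM (adjusted p = 0.54 and 0.47). The pentose phosphate members made up 5.19 ± 0.076% of the members' summed FPKM in the controls and 5.60 ± 0.22% with TGF-β1.

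Ratios between isoforms within a library do not depend on scaling between libraries. PFKP to PFKL was 2.45, 2.43 and 3.04 in the controls and 3.34, 4.05 and 3.83 with TGF-β1. PFKM to PFKL was 0.196, 0.199 and 0.256 and then 0.261, 0.344 and 0.318. Both ratios were higher in every TGF-β1 library, with changes of 0.50 on the log2 scale, or 0.46 and 0.34 after GC correction. Both have PFKL, which was called lower, as denominator, so they are not separate results. The changes of PFKP and PFKM themselves were below 0. ENO2 to ENO1 was 0.0188, 0.0178 and 0.0187 in the controls and 0.0168, 0.0160 and 0.0161 with TGF-β1. It was lower in every TGF-β1 library by a small amount (-0.18, or -0.11 after GC correction). PFKFB4 to PFKFB3, at 0.185 and 0.160, and ALDOC to ALDOA, at 0.584 and 0.261, were also lower in every TGF-β1 library. The last has ALDOA, whose listed level is uncertain, as its denominator, and no GC-corrected value. For these 5 ratios the exact two-sided permutation test gave p = 0.1, the smallest that 3 against 3 can give, and 0.2 after Benjamini-Hochberg adjustment over 10 ratios, so none passed. The groups overlapped for HK2 to HK1 (0.0792 and 0.0594), LDHA to LDHB (21.4 and 15.5), SLC16A3 to SLC16A1 (1.81 and 1.28), PFKFB2 to PFKFB3 and PDHB to PDHA1. The listed level of LDHB, a denominator here, is uncertain as that of ALDOA is.

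**Figure D5:**
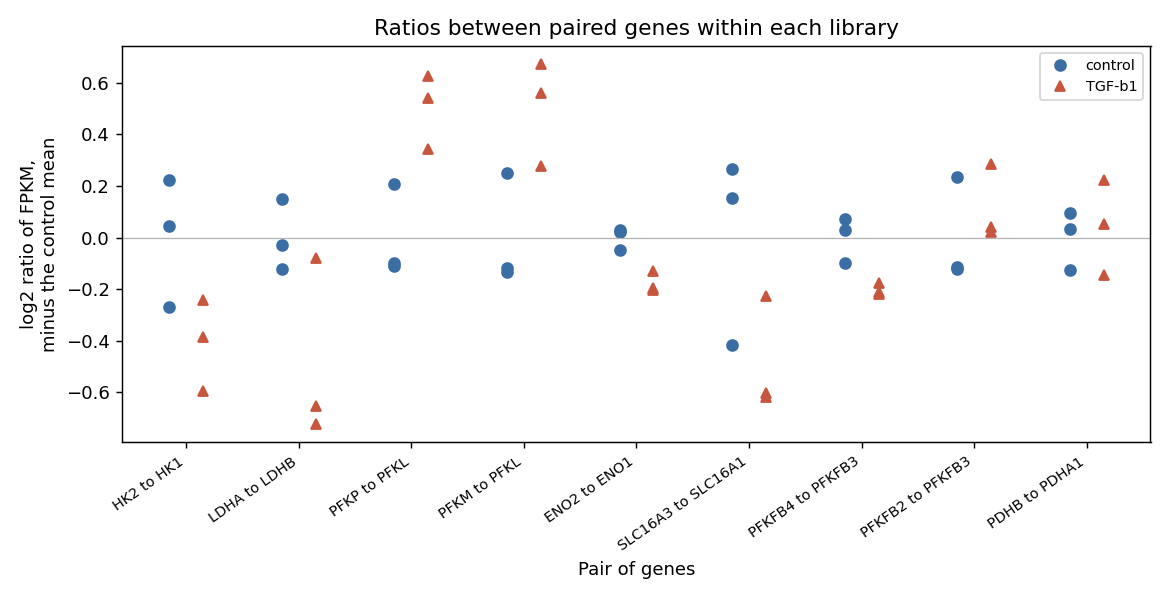
Ratio of FPKM between paired members in each library (y axis, log2, minus the mean of the controls); circles are controls and triangles TGF-β1 libraries. The triangles lie above all circles for PFKP to PFKL and PFKM to PFKL, and below all circles for ENO2 to ENO1 and PFKFB4 to PFKFB3; ALDOC to ALDOA is not drawn.

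The rest of the pathway was read from 6 lists of 88 further genes, of which 55 were tested. Of them 1 was called higher and 4 lower, and 17 were at an unadjusted p under 0.05, against 1.14%, 1.29% and 25.1% of all genes tested. EMB (embigin), a chaperone of monocarboxylate transporters, rose from 19.2, 18.1 and 22.7 FPKM to 29.3, 30.1 and 34.4 FPKM (change 0.62, SE 0.11, adjusted p = 0.014). PC, the pyruvate carboxylase that refills the citric acid cycle, fell from 16.0, 16.1 and 13.0 FPKM to 10.3, 10.1 and 8.65 FPKM (change -0.59, adjusted p = 0.018). The groups did not overlap for either, and both calls held after GC correction (adjusted p = 0.0053 and 0.0063). The galactokinase GALK1 fell from 10.6 to 6.65 FPKM (adjusted p = 0.033, and 0.059 after GC correction), and MPI, which joins mannose to glycolysis, from 5.44 to 3.61 FPKM (adjusted p = 0.032). Without control 1 the count over the 6 lists was 0 and that over all genes 124, and without control 3 they were 20 and 3280.

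In the other pentose phosphate list 9 of 12 genes were tested and 0 were called by limma, with 4 at an unadjusted p under 0.05, against 25.1% of all genes tested. Of the 18 other glycolysis isoforms 3 were tested and 14 were under 1 FPKM in every library. The 8 isoforms restricted to liver, muscle, testis or leukocytes summed to at most 1.20 FPKM in any library.

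Among 16 regulators 11 were tested. MYC, a transcription factor that drives many glycolytic genes, fell from 33.7 ± 1.69 to 25.3 ± 1.58 FPKM (SD, n = 3; change -0.40, adjusted p = 0.049), and that call did not hold after GC correction (adjusted p = 0.12). HIF1A, the oxygen-regulated subunit of HIF-1, stood at 39.0 ± 4.97 and 39.4 ± 2.08 FPKM (adjusted p = 0.91), and its partner ARNT at 9.69 and 10.5 FPKM (adjusted p = 0.44). EPAS1 was at 1.51 and 1.66, EGLN1 at 15.4 and 16.3, VHL at 26.8 and 26.4, MLXIP at 6.28 and 6.89, PRKAA1 at 12.6 and 14.9, PRKAA2 at 2.93 and 3.07 and NFE2L2 at 8.21 and 9.58 FPKM, with adjusted p from 0.21 to 0.88. ARRDC4, RRAD, MLXIPL and EGLN3 were below 1 FPKM in every library, and TXNIP was listed at 0 in all 6.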

How the data were processed

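The values deposited by the authors are FPKM for 58735 gene rows in 6 libraries, with 11 rows of mapping totals that were left out. The submitters' processing notes name HISAT2 2.0.5, featureCounts 1.5.0-p3 and the build hg38. Strand setting, library kit, trimming and annotation release were not given in the sources used here. Exon lengths of GENCODE 29 turned 99.999% of 126561 values above 0 into whole fragments, to within 0.05, which gave the depths. The deposited FPKM denominators were 0.964 to 1.04 times the assigned fragments, and within 0.438% of a median-of-ratios size factor. Gene coordinates, overlaps and GC content are from GENCODE 29, and promoter windows from RefSeq on GRCh38.p14.

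The fit took genes that reached 1 FPKM in 3 or more libraries, as log2(FPKM + 1) with limma 3.58.1 (R 4.3.3), with trend and robust estimation and treatment as the only term. Changes on that scale understate those of low genes. The p-values were adjusted by Benjamini-Hochberg over all 11363 genes, at a threshold of 0.05. The fit was tested on simulated data that held no GC trend and no deviating library, so that test does not bear on either. GC correction subtracted from each library a loess (span 0.5) on GC content and exon length. All members were named, other pathway genes where they passed the threshold, and regulators whatever their values, except that a few list genes are not reported here. The members and lists were chosen with earlier results of these data known, and no test was made over a list. The alternatives were other filters, pseudocount and scalings, limma without trend and robust estimation, voom on recovered fragments, protein-coding genes only, the replicate number as a block and leaving out each library. GC correction without control 3 was added after the data were seen.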

Additional observations from a re-analysis of the deposited data

How the results depend on the processing

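With 3 libraries a group, counts of calls were the least stable values. Leaving out each library in turn, members called lower ran from 0 to 14, members called higher from 0 to 1, other pathway genes called from 0 to 20 and all genes called from 124 to 3280. With no filter on low values 15 of all genes (0.0141% lower), 0 members and 0 other pathway genes were called. At a minimum of 5 FPKM 500 of all genes were called, 4.79% lower. Limma without trend and robust estimation called 0 members lower, against 0.889% of all genes, and 2 other pathway genes. Voom called 931 of all genes (5.18% lower), 5 members lower and 11 other pathway genes. Over protein-coding genes only there were 846 calls (5.5% lower), with 4 members lower and 9 other pathway genes. After GC correction 504 of all genes were called, and without control 3 as well 773, with 6 members lower. Scaling to an equal sum of FPKM moved the members' median to -0.11. The protein-coding sum as denominator gave member shares of 2.65 and 2.37%.

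Replicate numbers were shared between groups in the labels. Deviations from the group means correlated at 0.25, -0.071 and 0.17 between libraries of the same number, and at -0.24 to 0.069 between libraries of different number. These values do not settle whether the numbers pair the samples, and the main fit did not take them to. With the replicate number as a block 767 of all genes (4.56% lower), 8 other pathway genes and 3 members, all lower (HK2, ENO2 and PFKL), were called, and with the block and GC correction together 491 of all genes (2.12% lower) and 3 members lower. Of the recomputed changes of single members 534 kept their side of the threshold, 26 newly passed it and 12 lost it, and the 12 are those of PFKL and ENO2. PFKFB2, PFKFB3, ALDOA, PGAM1, PDK1 and PGD, which were called in no setting, had changes of either sign. The ratio of PFKFB2 to PFKFB3 turned from 0.12 to -0.17 after GC correction. Depth limits ALDOC and SLC2A3, and the cause of the other changes was not tested.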

Other observations

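One gene that shares exon bases with a member stood out, chosen after its values were seen. UCN2, which encodes the secreted peptide urocortin 2, lies at chr3:48561727-48563773 on the strand of PFKFB4 and shares 4.73% of that member's exon bases. It held 2, 0 and 3 fragments in controls 1 to 3 and 44, 57 and 49 in the TGF-β1 libraries, or 0.049 ± 0.045 and 1.46 ± 0.12 FPKM (SD, n = 3). It reached 1 FPKM in the TGF-β1 libraries alone. A gene that passes a filter through 1 group alone had to differ, so no test is given. PFKFB4 itself stood at 10.8 and 9.26 FPKM (adjusted p = 0.25).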
